A study of Homo sapiens with 10 samples.

Results

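The genes that fire replication origins and run the replication fork were examined in U2OS cells exposed to palbociclib (PD0332991), a drug that blocks the kinases CDK4 and CDK6, the partners of cyclin D. A list of 39 genes was set by function and divided by role into the CMG helicase with its firing kinases, fork protection, the DNA polymerases, the clamp and its loader, the single-strand binding protein RPA, Okazaki fragment maturation and chromatin assembly. A gene was read from the probe set whose annotation names it and no other gene. This gave 33 measured genes of 14232 single-symbol genes on 21980 probe sets. TIPIN, POLA1, PCNA, RPA3 and FEN1 lay only on probe sets that also name another gene, DNA2 was on none, and these 6 are given no value.

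At a licensed origin the kinases CDC7-DBF4 and CDK2 allow CDC45 and the GINS complex to join the MCM ring, which forms the active CMG helicase. DNA polymerase alpha with primase then lays down primers, the RFC complex loads the sliding clamp PCNA, and polymerases epsilon and delta extend the leading and the lagging strand. RPA covers the exposed single strand, nucleases and LIG1 join the Okazaki fragments, and CAF-1 with ASF1 places histones on the new DNA. Many of these genes are known targets of E2F transcription factors, which the retinoblastoma protein holds back until cyclin D-dependent kinases phosphorylate it.

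U2OS is a human osteosarcoma line. Per the labels, cells plated to 25% density had 30 h in 10% serum before exposure to PD0332991 or to its solvent, DMSO, which lasted 4 h; there were 5 biological replicates of each. The labels give the dose as 1 mM, which could not be checked and is far above the micromolar doses common in culture. The array names form 2 sets, the first with replicates 1 to 3 of either treatment (6 arrays), the second with replicates 4 and 5 (4 arrays). Of 9 mesenchymal and bone markers all were measured, with VIM, COL1A1, SPARC and FN1 between percentiles 96.3 and 97.9 of their arrays, while TWIST1 and ALPL were at percentiles 38.1 and 38.6. The 4 measured blood markers lay at or below percentile 46.0 and the epithelial ones between 19.3 and 52.6.

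DMSO replicate 1 stood apart from the other arrays. Its median correlation with the rest was 0.964 over all probe sets, against 0.982 to 0.987 for the other 9. Results are therefore given with this array, and for some members also without it. Leaving it out made some decreases larger and others smaller.

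No member passed the test between treatments. With limma on all 21980 probe sets and array set as a covariate, 0 of the 33 had an adjusted p under 0.05, where 9 probe sets were called lower (0.0409%) and 2 higher (0.00910%). The smallest adjusted p was that of POLD3, 0.207. At an unadjusted p under 0.05, 10 members had a log2 fold change below 0 and 0 had one above it, where 2.52% and 1.30% of all genes did. Those 10 were CDC45, GINS3, RECQL4, POLA2, POLD3, RFC4, RFC5, CHAF1A, CHAF1B and ASF1B. Other fits gave counts of 20 with array weights (all genes 4.34%), 13 after quantile normalization (2.59%), 13 after cyclic loess (2.75%), 4 in array set 1 alone (1.31%), 5 in set 2 alone (2.26%) and 16 with both arrays numbered 1 left out (3.15%). Without DMSO replicate 1 the count was 16 (all genes 3.53%), with GINS1, CDC7, WDHD1, PRIM1, POLE and RFC3 added. In that fit 0 members passed the adjustment, where 20 of the 21980 probe sets were called lower and 3 higher.

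The log2 fold change was below 0 for 29 of the 33 members and for 55.3% of all genes. The median over the members was -0.22, against -0.02 over all genes. Without DMSO replicate 1 the median was -0.21 and 29 members were below 0, as were 46.8% of all genes. A decrease of at least 1.2-fold was seen for 13 members (4.73% of all genes) and an increase of that size for 1, ASF1A (3.60%). For 9 members every treated array lay below every DMSO array of its own set, an order held by 1.70% of all genes, and for 0 members was the order the reverse (0.899%). For RECQL4, POLD3 and CHAF1A all 5 treated arrays lay below all 5 DMSO arrays (0.689%). The members were mostly bright, at a median array percentile of 77.9 against 53.2 for all genes. The 95% confidence interval of a member's log2 fold change reached 0.27 to either side at the median, against 0.30 for all genes. RNA was taken from whole cultures, so fewer cells in S phase and less transcript per cell cannot be told apart.

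**Figure D1:**
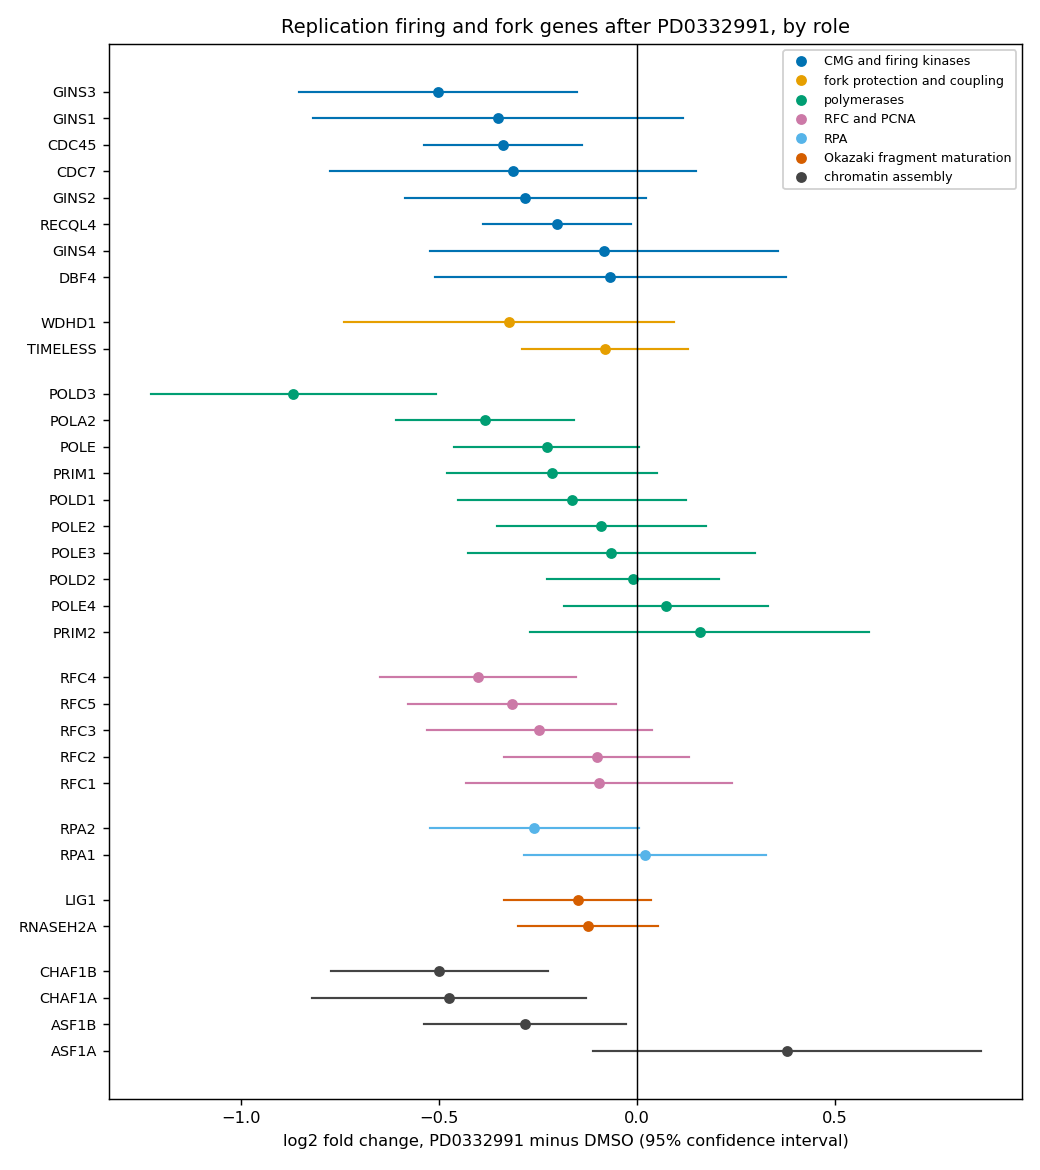
Log2 fold change of each of the 33 members (points) with its 95% confidence interval (lines), PD0332991 minus DMSO, 5 arrays each, limma with array set as a covariate, coloured by role. Of the intervals 10 lie below 0 and the other 23 include it, and POLD3 stands farthest to the left at -0.87.

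Promoter windows of RefSeq (GRCh38.p14, 250 bases before to 50 after a transcript start) were matched for 29 of the 33 members, 5 of them with more than 1 window. No window was matched for GINS4, RECQL4, POLD3 and RPA2. The E2F words TTTCCCGC, TTTGGCGC, TTTCGCGC and TTTGCCGC were searched on both strands, and no match in the members overlapped the other words searched, which were CCAAT and the cell cycle words TTTGAA as well as TTCGAA. A match stood in a window of 10 members (34.5%): GINS1, GINS2, GINS3, CDC7, POLA2, POLE, POLE2, POLE4, RFC3 and LIG1. Over all genes on the arrays with a window the share was 5.56% (633 of 11386). The median log2 fold change was -0.26 for the 10 members with a match and -0.12 for the 19 without. Over all genes on the arrays with a window these medians were -0.04 and -0.01. POLD3, at -0.87 the member with the largest change, is in neither group, and the difference was not tested. All 4 chromatin assembly genes were among the 19 without a match. Only these words were counted, so a window without a match may hold a near form. For example, TTTGGCGG, which was not searched, stands on either strand in windows of CDC45, RFC1 and CHAF1A. It also stands unmarked in that of POLA2. The split into 10 and 19 therefore holds for the searched words alone. A match is a run of letters and no measured binding site. The windows below are those of GINS3, CDC7 (its second window) and POLA2, which hold a match, and of CHAF1B, which holds none and had the second smallest p. Capitals mark the matches, which start 5 bases before the transcript start in GINS3, 68 and 34 before it in CDC7 and 53 before it in POLA2.
GINS3 (chr16:58392221-58392520, plus strand): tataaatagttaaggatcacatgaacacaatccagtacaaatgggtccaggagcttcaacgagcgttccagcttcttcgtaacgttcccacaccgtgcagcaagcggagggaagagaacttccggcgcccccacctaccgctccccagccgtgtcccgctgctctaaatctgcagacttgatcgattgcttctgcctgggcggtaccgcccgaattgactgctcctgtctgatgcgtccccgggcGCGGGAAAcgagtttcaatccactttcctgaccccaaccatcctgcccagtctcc
CDC7 (chr1:91500862-91501161, plus strand): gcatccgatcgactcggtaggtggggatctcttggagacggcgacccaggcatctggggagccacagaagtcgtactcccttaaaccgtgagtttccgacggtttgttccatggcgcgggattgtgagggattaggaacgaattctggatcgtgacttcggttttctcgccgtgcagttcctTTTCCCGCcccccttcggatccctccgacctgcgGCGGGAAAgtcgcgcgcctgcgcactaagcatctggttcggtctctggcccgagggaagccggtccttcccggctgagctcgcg
POLA2 (chr11:65261712-65262011, plus strand): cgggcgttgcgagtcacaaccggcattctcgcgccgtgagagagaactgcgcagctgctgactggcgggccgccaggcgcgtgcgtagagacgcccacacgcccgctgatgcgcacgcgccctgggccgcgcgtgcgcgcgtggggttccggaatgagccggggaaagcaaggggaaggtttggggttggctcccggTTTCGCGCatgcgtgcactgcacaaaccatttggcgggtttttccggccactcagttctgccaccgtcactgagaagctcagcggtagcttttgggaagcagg
CHAF1B (chr21:36385142-36385441, plus strand): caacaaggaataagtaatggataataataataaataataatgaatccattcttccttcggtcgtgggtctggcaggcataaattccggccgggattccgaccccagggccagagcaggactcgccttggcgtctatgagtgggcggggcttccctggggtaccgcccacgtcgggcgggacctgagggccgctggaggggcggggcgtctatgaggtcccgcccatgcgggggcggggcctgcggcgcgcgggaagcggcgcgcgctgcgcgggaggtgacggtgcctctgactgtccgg

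The CMG helicase and its firing kinases all had log2 fold changes below 0 (8 of 8, median -0.30), from -0.50 for GINS3 to -0.07 for DBF4, and 0 passed the adjustment. CDC45, which binds the MCM ring at firing, read 10.25, 10.11, 10.31, 10.57 and 10.59 on DMSO arrays 1 to 5 (log2 values) and 9.97, 9.78, 9.91, 10.35 and 10.13 on PD0332991 arrays 1 to 5. The treated arrays were the lower ones within each set, while set 2 as a whole was higher than set 1, so the groups overlap when the sets are pooled. Its log2 fold change was -0.34 ± 0.09 (SE, limma adjusted p = 0.643), -0.34 in set 1 and -0.34 in set 2.

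GINS3 encodes a subunit of the 4-protein GINS complex, and its promoter is printed above. It read 7.98, 8.53, 8.75, 8.65 and 8.74 in DMSO and 8.25, 7.79, 7.82, 8.26 and 8.01 after PD0332991. DMSO replicate 1 was the only control array within the treated range. The log2 fold change was -0.50 ± 0.16 (SE, limma adjusted p = 0.868), and -0.63 ± 0.12 without that array (adjusted p = 0.163). The other GINS subunits had -0.35 (GINS1), -0.28 (GINS2) and -0.08 (GINS4). Without DMSO replicate 1 these were -0.56, -0.21 and -0.19, so the decrease of GINS2 was smaller. GINS4 was uneven, with -0.30 in set 1 and 0.23 in set 2.

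RECQL4, a helicase-family protein needed for initiation, read 8.86, 8.93, 8.78, 8.94 and 9.06 in DMSO and 8.72, 8.67, 8.74, 8.67 and 8.78 after PD0332991. The groups did not overlap, though the step was small: the log2 fold change was -0.20 ± 0.08 (limma adjusted p = 1.00). Of the kinase that phosphorylates the MCM ring, the catalytic subunit CDC7 had -0.31 and the activating subunit DBF4 -0.07. DBF4 read 6.88, 6.90, 7.13, 6.01 and 6.13 in DMSO and 6.68, 6.38, 7.04, 5.84 and 6.78 after PD0332991, and the groups overlapped over most of their range. CDC7 was at -0.10 in set 1 and -0.64 in set 2, and at -0.51 ± 0.13 without DMSO replicate 1 (adjusted p = 0.339).

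Fork protection was represented by TIMELESS, a partner of the fork that keeps helicase and polymerase coupled, and WDHD1 (AND-1), which links the CMG helicase to polymerase alpha. TIMELESS read 9.11, 9.21, 9.41, 9.21 and 9.34 in DMSO and 9.16, 9.06, 9.27, 9.25 and 9.13 after PD0332991. The groups overlapped, with DMSO replicates 3 and 5 above every treated array, and the log2 fold change of -0.08 had a 95% confidence interval of -0.29 to 0.13. WDHD1 had -0.32 ± 0.19, and -0.49 ± 0.12 without DMSO replicate 1 (limma adjusted p = 0.352).

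Of 10 measured DNA polymerase subunits 8 had a log2 fold change below 0, the median was -0.13, and the values ran from -0.87 to 0.16. POLD3, an accessory subunit of polymerase delta that binds PCNA, had the largest difference of all 33 members. It read 8.27, 8.56, 8.72, 8.25 and 8.29 in DMSO and 7.50, 7.22, 8.07, 7.34 and 7.61 after PD0332991. Every treated array was below every control array, the nearest being PD0332991 replicate 3. The ratio was 1.83-fold lower with a 95% confidence interval of 1.42 to 2.34 (log2 fold change -0.87 ± 0.16, limma adjusted p = 0.207), with -0.92 in set 1 and -0.79 in set 2. POLD3 passed only when arrays were weighted by their quality (-0.97, adjusted p = 0.0144), a fit that called 50 probe sets lower (0.227%).

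The other measured subunits of polymerase delta had smaller values: -0.16 for the catalytic subunit POLD1 and -0.01 for POLD2, an accessory subunit. POLD2 read 10.50, 10.30, 10.14, 10.36 and 10.26 in DMSO and 10.37, 10.15, 10.27, 10.38 and 10.33 after PD0332991. Its groups overlapped in full, and the interval of -0.23 to 0.21 leaves out a decrease of the size seen for POLD3. On each array the distance from POLD1 to POLD3 shifted by -0.70 with treatment (95% confidence interval -1.32 to -0.08; exact permutation p = 0.050, or 0.117 adjusted over 7 pairs).

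POLA2, the regulatory subunit of polymerase alpha, read 9.19, 9.09, 9.23, 8.93 and 9.04 in DMSO and 8.66, 8.56, 8.96, 8.67 and 8.70 after PD0332991. Only PD0332991 replicate 3 reached the DMSO range, and not that of its own set. The log2 fold change was -0.38 ± 0.10 (limma adjusted p = 0.635), a 1.31-fold lower level with an interval of 1.12 to 1.52. Of the primase, the catalytic subunit PRIM1 had -0.22 and the large subunit PRIM2 had 0.16, or -0.29 and -0.02 without DMSO replicate 1. The shift between them was 0.37 (0.07 to 0.68; exact permutation p = 0.0333, adjusted 0.117).

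POLE, the catalytic subunit of the leading-strand polymerase epsilon, read 8.76, 9.17, 9.21, 9.15 and 9.06 in DMSO and 8.86, 8.84, 8.85, 8.89 and 8.77 after PD0332991. Of the controls DMSO replicate 1 was alone in being as low as the treated arrays. The log2 fold change was -0.23 ± 0.10 with all arrays and -0.31 ± 0.07 without that one (limma adjusted p = 1.00 and 0.265). The other epsilon subunits were nearer to 0, with -0.09 for POLE2, -0.07 for POLE3 and 0.07 for POLE4. POLE3, a histone-fold subunit, had -0.32 in set 1 and 0.31 in set 2.

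All 5 measured subunits of RFC, the loader of PCNA, had log2 fold changes below 0 (median -0.25), and 0 passed the adjustment. RFC4 read 9.42, 9.69, 9.69, 9.85 and 9.67 in DMSO and 9.05, 9.20, 9.40, 9.18 and 9.48 after PD0332991. Within each set every treated array was the lower, and the log2 fold change was -0.40 ± 0.11 (limma adjusted p = 0.652), -0.38 in set 1 and -0.43 in set 2. RFC5 read 8.80, 9.16, 9.31, 8.95 and 9.09 in DMSO and 8.77, 8.59, 8.93, 8.78 and 8.64 after PD0332991, with DMSO replicate 1 inside the treated range. Its log2 fold change was -0.32 ± 0.12 and without that array -0.39 ± 0.10 (adjusted p = 1.00 and 0.339).

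The remaining RFC subunits were RFC3 at -0.25, RFC2 at -0.10 and the large subunit RFC1 at -0.10. Without DMSO replicate 1 these were -0.35, -0.18 and -0.20 (limma adjusted p = 0.418, 0.855 and 0.984). RFC1 read 9.43, 9.93, 10.03, 9.52 and 9.36 in DMSO and 9.62, 9.56, 10.02, 9.08 and 9.50 after PD0332991, and the groups overlapped. Its log2 fold change had a 95% confidence interval of -0.43 to 0.24.

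RPA was measured through its large subunit RPA1 and the middle subunit RPA2, a target of checkpoint kinases. RPA2 read 8.42, 8.13, 8.25, 8.20 and 8.15 in DMSO and 7.63, 8.05, 8.15, 7.97 and 8.06 after PD0332991. PD0332991 replicate 1 was the lowest array and replicate 3 reached the controls, and the log2 fold change was -0.26 ± 0.12 (limma adjusted p = 1.00). Without DMSO replicate 1, the highest control for RPA2, it was -0.21 ± 0.11. RPA1 read 9.86, 10.56, 10.32, 10.09 and 10.06 in DMSO and 10.31, 10.31, 10.03, 10.07 and 10.26 after PD0332991. Its treated arrays all lay inside the control range, with a log2 fold change of 0.02 (-0.29 to 0.33) that was -0.08 without DMSO replicate 1.

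Okazaki fragment maturation was read from LIG1, the ligase that seals the fragments, and RNASEH2A, the catalytic subunit of the ribonuclease that acts on RNA in DNA. Both differences were small and both genes had every treated array below the controls of its set. RNASEH2A read 9.57, 9.40, 9.47, 9.57 and 9.63 in DMSO and 9.36, 9.36, 9.39, 9.48 and 9.43 after PD0332991, a log2 fold change of -0.12 with an interval of -0.30 to 0.05. LIG1 had -0.15 (-0.34 to 0.03).

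Chromatin assembly had the lowest median of the 7 roles over all arrays, -0.38, with 3 of its 4 genes below 0. The order turned in array set 2, where its median was -0.27 and that of the CMG group -0.31. CHAF1A and CHAF1B are subunits of CAF-1, the chaperone that PCNA brings to new DNA. CHAF1B read 8.50, 8.26, 8.26, 7.94 and 7.85 in DMSO and 7.51, 7.58, 7.90, 7.65 and 7.66 after PD0332991. Within each set the treated arrays were lower, and PD0332991 replicate 3 exceeded only the lowest control array of the other set. The log2 fold change was -0.50 ± 0.12 (limma adjusted p = 0.525), with -0.67 in set 1 and -0.24 in set 2. Without DMSO replicate 1, the highest control for CHAF1B, it was smaller at -0.43 ± 0.11 (adjusted p = 0.374).

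CHAF1A read 8.42, 9.06, 8.48, 8.53 and 8.46 in DMSO and 7.85, 8.36, 8.0, 8.05 and 8.33 after PD0332991. The groups did not overlap, and DMSO replicate 2 was the highest array by a wide margin. Its log2 fold change was -0.48 ± 0.16 (limma adjusted p = 0.929). The response of both CAF-1 genes differed by -0.02 with an interval of -0.49 to 0.45, too wide to call them alike.

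ASF1A and ASF1B are paralogous chaperones that hand histones H3 and H4 to CAF-1, and they had log2 fold changes of opposite sign. ASF1B read 9.43, 9.65, 9.37, 9.66 and 9.76 in DMSO and 9.51, 9.27, 9.02, 9.36 and 9.28 after PD0332991, a log2 fold change of -0.28 ± 0.11. ASF1A read 6.68, 7.89, 7.88, 7.38 and 7.20 in DMSO and 7.81, 7.91, 8.14, 7.43 and 7.63 after PD0332991. DMSO replicate 1 was far below the other controls for ASF1A, and the log2 fold change of 0.38 ± 0.22 was 0.15 ± 0.10 without it. On each array the distance from ASF1A to ASF1B shifted by -0.66 (-1.31 to -0.02; exact permutation p = 0.0333, adjusted 0.117), or by -0.45 without DMSO replicate 1 (adjusted 0.156).

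**Figure D2:**
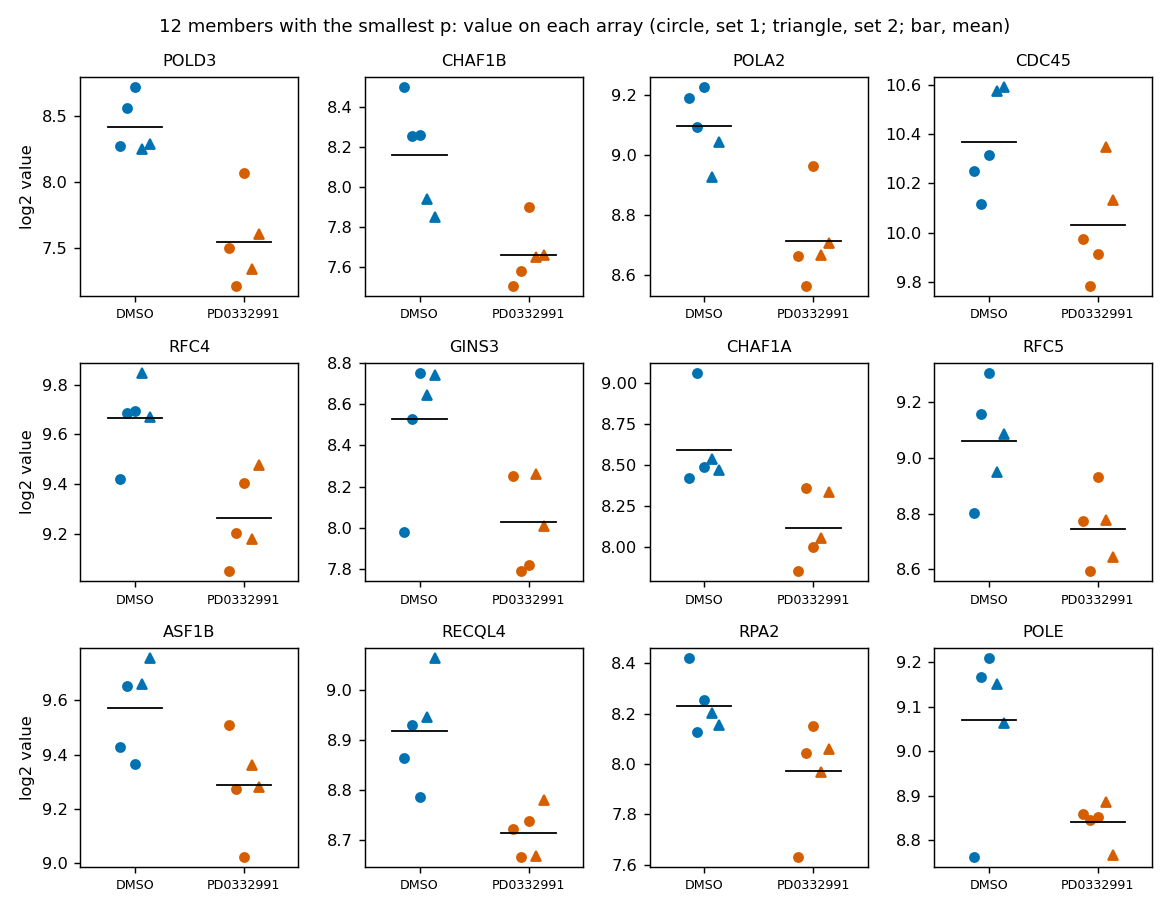
Log2 values on each array of the 12 members with the smallest limma p (circles, array set 1; triangles, array set 2; bars, group means). POLD3, CHAF1A and RECQL4 have no overlap between groups, and DMSO replicate 1 is the low control of GINS3, RFC5 and POLE.

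Of the 10 partner pairs listed, 7 had both genes measured, and none passed by exact permutation of treatment within array sets (smallest adjusted p 0.117). With 120 assignments the smallest p possible was 0.0167. CDC7 and DBF4 differed in response by 0.25 (-0.43 to 0.92), POLE and POLE2 by 0.14 (-0.11 to 0.39), and POLE3 and POLE4 by 0.14 (-0.32 to 0.59). These intervals include shifts as large as that of POLA2, so the partners are not shown to respond alike.

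The array sets gave like medians, -0.21 in set 1 and -0.22 in set 2. In both sets 25 members were below 0 (30.0% of all genes were), 3 were above 0 and 5 had opposite signs. Those 5 were GINS4, DBF4, POLE3, POLD2 and RPA1, each below 0 in set 1 and above 0 in set 2. The limma interaction of treatment and array set passed for 0 of 33 members (0% of probe sets), and 0 members had an unadjusted interaction p under 0.05, where 1.24% of all genes did. Each set alone called 0 members.

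**Figure D3:**
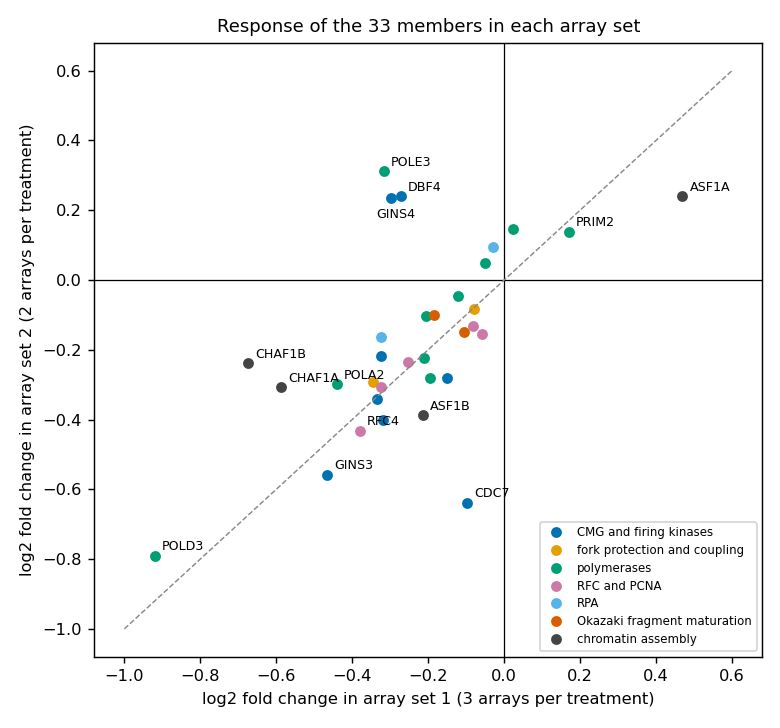
Log2 fold change of each member in array set 1 (x axis, 3 arrays per treatment) and array set 2 (y axis, 2 arrays per treatment), coloured by role, with the line of equal values dashed. Below 0 on both axes lie 25 members, with POLD3 at -0.92 and -0.79, while GINS4, DBF4, POLE3, POLD2 and RPA1 lie above 0 in set 2 alone.

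On single arrays, the members' median deviation from each gene's mean over the 10 arrays was between 0.09 and 0.25 for DMSO replicates 2 to 5 and between -0.16 and -0.04 for the treated arrays. DMSO replicate 1 was at -0.10, inside the treated range, while the median of all genes on it was the highest of the 10 arrays, at 0.10. It was the lowest of the 5 control arrays for 17 members and the highest for 5. The part of this array in the results is given by the values without it.

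**Figure D4:**
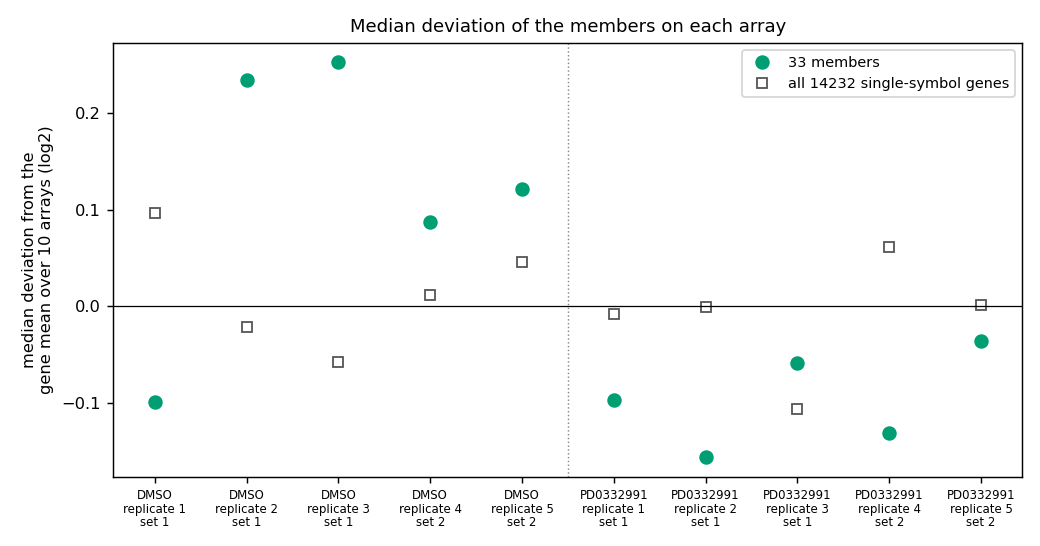
Median deviation (log2) of the 33 members and of all 14232 single-symbol genes from each gene's mean over the 10 arrays, per array. The control arrays other than DMSO replicate 1 lie above 0 for the members, and DMSO replicate 1 lies at -0.10.

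The genes of licensing and the rest of the fork were set beside the members. Of 9 measured MCM family genes 9 were below 0 (median -0.23) and MCM10, an initiation factor, was lower at -0.77 ± 0.11 (limma adjusted p = 0.0499). Of 21 other fork and initiation genes 14 were below 0 (median -0.08) and DTL, the substrate receptor that targets CDT1 for degradation, was lower at -1.15 ± 0.16 (adjusted p = 0.0499). Among 11 alternatives that changed another setting MCM10 was called in 7 and DTL in 8. Both calls were kept in 1 of 10 fits that left out 1 array, the one without DMSO replicate 1, and lost in the other 9 (adjusted p from 0.127 to 0.265 for MCM10 and from 0.112 to 0.255 for DTL). When the block was the replicate number and not the array set, both had an adjusted p of 0.196.

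Origin recognition and licensing genes (10 measured, 6 below 0, median -0.16) had 0 calls. Their smallest p belonged to ORC1, the largest ORC subunit, at -0.57, and to the loaders of the MCM ring, CDC6 at -0.68 and CDT1 at -0.94 (limma adjusted p = 0.117, 0.141 and 0.207). Without DMSO replicate 1 these 3 passed (adjusted p = 0.0495, 0.0495 and 0.0235), a fit in which no member did. Among the 11 alternatives that changed another setting ORC1 was called in 5, CDC6 in 4 and CDT1 in 2. Enzymes of deoxynucleotide synthesis (10 measured, 6 below 0, median -0.11) had 0 calls, with DUT at -0.24, RRM2 at -0.17 and DCK at -0.21. The lists were compared by counts and medians alone, and differences between them were not tested.

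**Figure D5:**
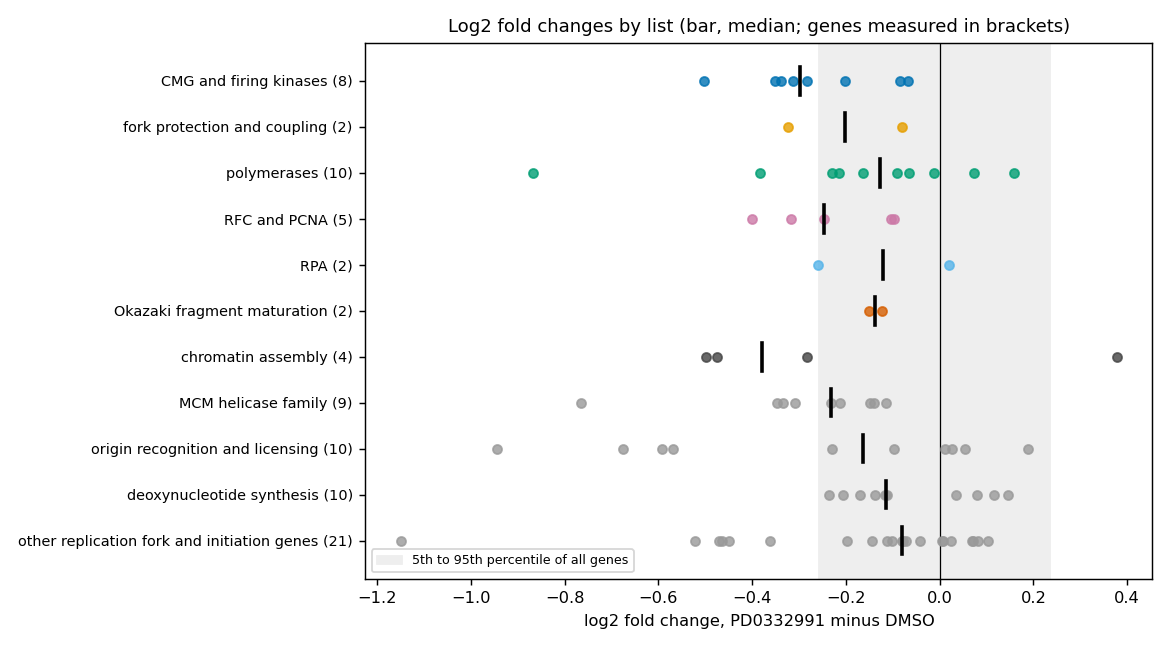
Log2 fold changes of the members by role (coloured) and of the comparison lists (grey), PD0332991 minus DMSO, with list medians as bars and the 5th to 95th percentile of all genes shaded. Chromatin assembly (median -0.38) and the CMG group (-0.30) have the lowest medians over all arrays, an order that turned in array set 2. Without DMSO replicate 1 the CMG median was -0.27, behind RFC (-0.35) and fork protection (-0.31). MCM10, CDT1 and DTL are the leftmost of their lists.

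Absence of a call sets only a limit on size. For 32 of the 33 members the 95% confidence interval left out a 2-fold decrease, and for POLD3 it did not. Replicates are described as biological in the labels, with 5 arrays per treatment. The limma p-values rest on the spread between arrays left after treatment and array set, moderated over all probe sets. Those of the pairs rest on permutation within array sets.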

How the data were processed

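Log2 expression values deposited by the authors, 1 per gene-level probe set and array, were used as given for 10 arrays. RMA, Partek and the build hg18 are named in the submitters' processing notes, with no versions. RMA compresses the fold changes of dim genes. Array medians ran from 6.95 to 7.06 and interquartile ranges from 3.18 to 3.68. Probe sets were named from the platform annotation (14432 with 1 symbol, 2408 with several, 5140 unnamed; 28 symbols had no match in RefSeq). A gene took its brightest probe set; each member had 1.

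The treatments were compared in R 4.3.3 by limma 3.58.1 (lmFit, eBayes, 2-sided, array set as a covariate, Benjamini-Hochberg over 21980 probe sets, threshold 0.05). Pairs were tested by exact 2-sided permutation. On data simulated for this comparison (21980 probe sets), 8.96% of log2 changes of 0.5, 82.1% of 1 and 98.5% of 2 were recovered, with 8 false calls among 134. A simulated probe set had the same spread on every array, while DMSO replicate 1 stood apart in the real data. The 134 calls, against 9 lower and 2 higher in the real data, made the adjusted threshold easier to pass. Recovery in the real data may therefore be lower. All members measured were named, with array values for the 12 of smallest p, the largest p in each role and ASF1A with ASF1B; of each comparison list, the genes called or else the 3 of smallest p. Members, lists, pairs, alternatives and the 1.2-fold limit were chosen with earlier results of these data known. Figures were drawn with Matplotlib 3.10.9 in Python 3.11.15.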

Additional observations from a re-analysis of the deposited data

Results flagged for a closer look

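Among 68 groups of 5 arrays, 3 held an array far from the other 4, where chance gives about 3.4 (1 in 20). GINS3 read 7.98 on DMSO replicate 1, against 8.53 to 8.75 on the other control arrays. RFC3 read 9.67 on DMSO replicate 1, against 10.09 to 10.25. CHAF1A read 9.06 on DMSO replicate 2, against 8.42 to 8.53. Their part in the results was not tested beyond the fits without each array.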

How the results depend on the processing

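Under 22 alternatives, 10 of which left out 1 array, 699 of 726 member values kept their direction and their side of the threshold. The median over the members ran from -0.23 to -0.19 with 1 array left out and from -0.25 to -0.21 otherwise, and 25 to 30 members were below 0. The count past the adjusted threshold was 0 throughout except with array weights, where it was 1 (POLD3; its adjusted p ran from 0.0144 to 0.999 over the alternatives). The count at an unadjusted p under 0.05 was 7 to 16 with 1 array left out. The 16 came without DMSO replicate 1 (3.53% of all genes), and the share was not counted for the other such fits. The count was 20 with array weights (4.34%) and 16 with both arrays numbered 1 left out (3.15%). Array set 1 alone gave 4 (1.31%) and array set 2 alone gave 5 (2.26%). The last 3 of these fits had fewer arrays. Quantile normalization and cyclic loess gave 13 each, with 49.8% and 50.3% of all genes below 0. The chromatin assembly median was -0.27 in array set 2 alone.

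Signs turned for members near 0, and the cause was not tested. RPA1 had -0.017 with cyclic loess, -0.046 with array weights, -0.029 in set 1 alone and -0.087 with both arrays numbered 1 left out. PRIM2 had -0.047 with array weights. POLD2 had 0.047 with array weights, 0.049 in set 2 alone and 0.018 with both arrays numbered 1 left out, and POLE3 had 0.061, 0.31 and 0.12. In set 2 alone GINS4 had 0.23 and DBF4 0.24. With both arrays numbered 1 left out the pair POLE3 and POLE4 differed by -0.0011 and the pair CHAF1A and CHAF1B by 0.075. With 1 array left out, these ranges included both signs: the pair CHAF1A and CHAF1B from -0.15 to 0.093, DBF4 from -0.26 to 0.048, GINS4 from -0.19 to 0.045, POLD2 from -0.052 to 0.045, POLE3 from -0.15 to 0.059, POLE4 from -0.0046 to 0.13, PRIM2 from -0.018 to 0.25, RPA1 from -0.079 to 0.11.

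Whether the replicate numbers pair the samples could not be settled. Same-numbered arrays correlated in their deviations from the group means at 0.04, 0.07, 0.54, 0.23 and 0.20 for replicates 1 to 5. Of the 5 controls 2 correlated best with their own number. Replicate 3 stayed at 0.40 when deviations were taken from the means within each array set. With replicate number as a block 0 members passed, 10 had an unadjusted p under 0.05 and the smallest adjusted p was 0.207. The share of all genes was not counted for this fit, so its counts are not read against a background. For the pairs the block gave adjusted p from 0.146 to 0.875, with differences as without it.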

Other observations

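Some genes that work beside the members were chosen here after their values were seen. GMNN, the inhibitor of CDT1, had a log2 fold change of -0.59, the checkpoint mediator CLSPN -0.52, ATAD5, which unloads PCNA, -0.47, and TICRR, an initiation factor that links CDK activity to CDC45 loading, -0.47. None passed the adjustment (limma adjusted p = 0.408, 0.652, 1.00 and 0.431). The histone chaperone subunits SSRP1 and SUPT16H of FACT had 0.07 and -0.04.

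The word CCAAT stood in a promoter window of 15 of 29 members (51.7%) and of 43.0% of genes on the arrays. The cell cycle words TTTGAA and TTCGAA stood in 3 members (10.3%, against 17.5%), DBF4, POLE3 and ASF1B.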
